A study of Homo sapiens with 15 samples.

Results

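The genes described here are 44 targets of the tumour suppressor p53 and regulators of apoptosis, out of 60664 genes in the deposited gene table, chosen by symbol and matched by Ensembl identifier. The rule itself takes no measured value, but the list was drawn up with earlier results of these data known. All 44 had a row in the table, and 42 had enough reads to be tested. RNA was sequenced from KPL4 cells, a human breast adenocarcinoma line with an amplified HER2 (ERBB2) gene, after depletion of ribosomal RNA, in 15 libraries of 5 groups with 3 libraries each. LY500307 libraries came from cells without their own estrogen receptor β (ERβ, gene ESR2) that carried transfected ERβ and received 200 nM of the ERβ agonist LY500307 for 24 h, after 72 h without phenol red in medium with 1% serum stripped by charcoal. Vehicle libraries came from the same kind of cells, given DMSO in place of the agonist under the same schedule. Add-back libraries came from knockout cells with transfected ERβ, knockout libraries from cells without ERβ, and control libraries from wild-type KPL4 with their own ERβ. The growth protocol gives 7% serum for maintenance, and no ligand is named for these 3 groups. The labels give neither the promoter that drove the transfected ERβ nor whether the knockout cells were 1 clone, and they do not state whether the 3 libraries of a group came from separate cultures, so p-values measure the spread between libraries, which may be technical.

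p53 is a transcription factor that is stabilised by DNA damage and other stress and is otherwise held low by the ubiquitin ligase MDM2, which is itself one of its targets. Other targets stop the cell cycle, repair DNA, adjust metabolism, or start apoptosis at the mitochondrion. There BH3-only proteins such as PUMA, NOXA and BIM set free the pore formers BAX and BAK from prosurvival proteins such as BCL2 and MCL1, after which cytochrome c and APAF1 activate caspase 9. Death receptors of the TNF receptor family start caspases from the cell surface instead.

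Depth was 12614074 to 19390378 expected counts per library, and the 44 genes held 0.169 to 0.203% of them. Levels are in CPM, counts divided by library size with TMM scaling. A gene was called when its Benjamini-Hochberg adjusted p in edgeR's quasi-likelihood test was under 0.05 over all 19516 genes tested, and ± after a log2 fold change is its SE. ESR2, the targeted gene, had a log2 fold change of -0.38 ± 0.17 in knockout over control cells (adjusted p = 0.0796), so its mRNA does not check the knockout label, and 2.89 ± 0.12 in add-back over knockout cells (adjusted p = 4.54e-12). All 6 markers of HER2-amplified epithelium were high, ERBB2 at 3411 to 6328 CPM in the 15 libraries. Of 11 markers of leukocytes, endothelium and fibroblasts, VWF, CDH5 and COL1A1 passed the filter on low counts and the other 8 had at most 14 counts in any library. The summed level of the 11 was 15.7 to 16.1 CPM with LY500307, 13.5 to 14.7 CPM with vehicle, 7.76 to 8.40 CPM in add-back, 7.84 to 8.68 CPM in knockout and 5.62 to 8.43 CPM in control cells, and its part in the results below was not tested. In RNA from whole cultures, fewer cells of one state and less RNA per cell cannot be told apart.

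Promoters are shown first because a p53 binding motif can be looked for in them. RefSeq's promoter table (GRCh38.p14, 250 bases before to 50 after each start) held 60 promoters of 35 of the 44 genes. The p53 consensus decamer, searched without a mismatch, lay in 8 of these 60 promoters (13.3%) and in 2329 of all 35116 promoters in the table (6.63%). The motif is a palindrome, so both strands were searched at once. A full p53 site is a pair of decamers with a spacer of 0 to 13 bases. Such a pair without a mismatch lay in 1 of the 60 promoters and in 10 of the 35116 (0.0285%). The 1 promoter was that of DDB2 (chr11:47214724-47215023, plus strand), where the decamers lay 1 base apart and the first began 5 bases after the start site. Without a spacer the pair lay in 0 of the 60 and in 6 of the 35116, and in 0 and 32 when 1 mismatch in each decamer was allowed. A match is a description of letters and not a bound site, and the window leaves out introns and distal elements. Promoters with the decamer belonged to CASP9, PLK2, BAK1, SESN1, FAS, DDB2, AEN and FDXR. Those shown were chosen with the calls known. AEN, called lower in add-back over knockout and in add-back over control cells, is among those left out, as is DDB2. Shown are those of 4 genes that were called in several comparisons, FAS (chr10:88991181-88991480, plus strand, decamer starting at -122 from the start site), BAK1 (chr6:33580227-33580526, minus strand, at -73), FDXR (chr17:74872945-74873244, minus strand, at -11) and PLK2 (chr5:58460037-58460336, minus strand, at -132). The promoter of GDF15 (chr19:18385908-18386207, plus strand), which had the largest fold change among the 42 genes in knockout over control cells, held no match and is shown beside them. Capitals mark the decamer, and each sequence is written in the direction of transcription.
FAS: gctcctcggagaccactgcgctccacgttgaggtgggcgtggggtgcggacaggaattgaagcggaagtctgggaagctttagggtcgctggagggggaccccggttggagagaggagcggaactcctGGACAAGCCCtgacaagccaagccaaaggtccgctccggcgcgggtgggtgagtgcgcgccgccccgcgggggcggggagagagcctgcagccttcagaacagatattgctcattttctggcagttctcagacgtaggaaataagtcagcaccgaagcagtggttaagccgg
BAK1: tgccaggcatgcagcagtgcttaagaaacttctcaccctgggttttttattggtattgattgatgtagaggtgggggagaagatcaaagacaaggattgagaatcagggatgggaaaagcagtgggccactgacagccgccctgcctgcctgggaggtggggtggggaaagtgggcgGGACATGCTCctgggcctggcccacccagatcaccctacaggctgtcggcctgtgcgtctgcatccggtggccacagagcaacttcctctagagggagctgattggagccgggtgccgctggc
FDXR: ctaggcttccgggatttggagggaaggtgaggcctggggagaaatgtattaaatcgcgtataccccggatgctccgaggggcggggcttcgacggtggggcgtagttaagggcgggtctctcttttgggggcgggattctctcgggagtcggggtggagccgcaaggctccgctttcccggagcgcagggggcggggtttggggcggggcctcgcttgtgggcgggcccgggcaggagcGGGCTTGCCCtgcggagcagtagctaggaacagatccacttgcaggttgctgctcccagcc
PLK2: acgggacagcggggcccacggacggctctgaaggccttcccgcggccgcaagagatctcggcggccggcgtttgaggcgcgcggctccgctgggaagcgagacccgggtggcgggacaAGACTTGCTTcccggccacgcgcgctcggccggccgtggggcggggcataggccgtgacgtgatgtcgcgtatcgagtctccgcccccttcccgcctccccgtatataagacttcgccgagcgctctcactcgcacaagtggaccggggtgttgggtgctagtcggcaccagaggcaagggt
GDF15: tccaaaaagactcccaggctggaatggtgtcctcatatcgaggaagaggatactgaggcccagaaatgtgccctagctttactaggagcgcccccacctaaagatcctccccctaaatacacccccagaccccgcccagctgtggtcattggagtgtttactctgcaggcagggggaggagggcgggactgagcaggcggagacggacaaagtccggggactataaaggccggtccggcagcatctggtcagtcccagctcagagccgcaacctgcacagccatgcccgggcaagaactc

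Per transcript length, the 44 genes spanned a wide range of levels in these cells. GDF15, a secreted stress cytokine, was highest at 98.7 TPM, the share of transcripts after division by length, averaged over the 15 libraries, followed by PLK2, a polo-like kinase, at 94 TPM, MCL1 at 85.1 TPM and cyclin G1 (CCNG1), a p53 target that takes part in feedback on MDM2, at 81.7 TPM. BAX stood at 60.4 TPM, DIABLO, which relieves caspase inhibition, at 59.8 TPM and BID at 51.1 TPM. At the other end, BCL2 stood at 0.632 TPM, PHLDA3, an inhibitor of AKT, at 1.40 TPM and BBC3, the gene of PUMA, at 1.58 TPM. In all, 26 of the 44 had at least 10 TPM and 9 had under 5 TPM. SPATA18, a mitochondrial quality control gene, and TNFRSF10C, a decoy receptor of TRAIL, were the 2 genes not tested. SPATA18 ran from 0 to 0.163 CPM in group means and TNFRSF10C from 0.168 to 0.348 CPM.

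**Figure D1:**
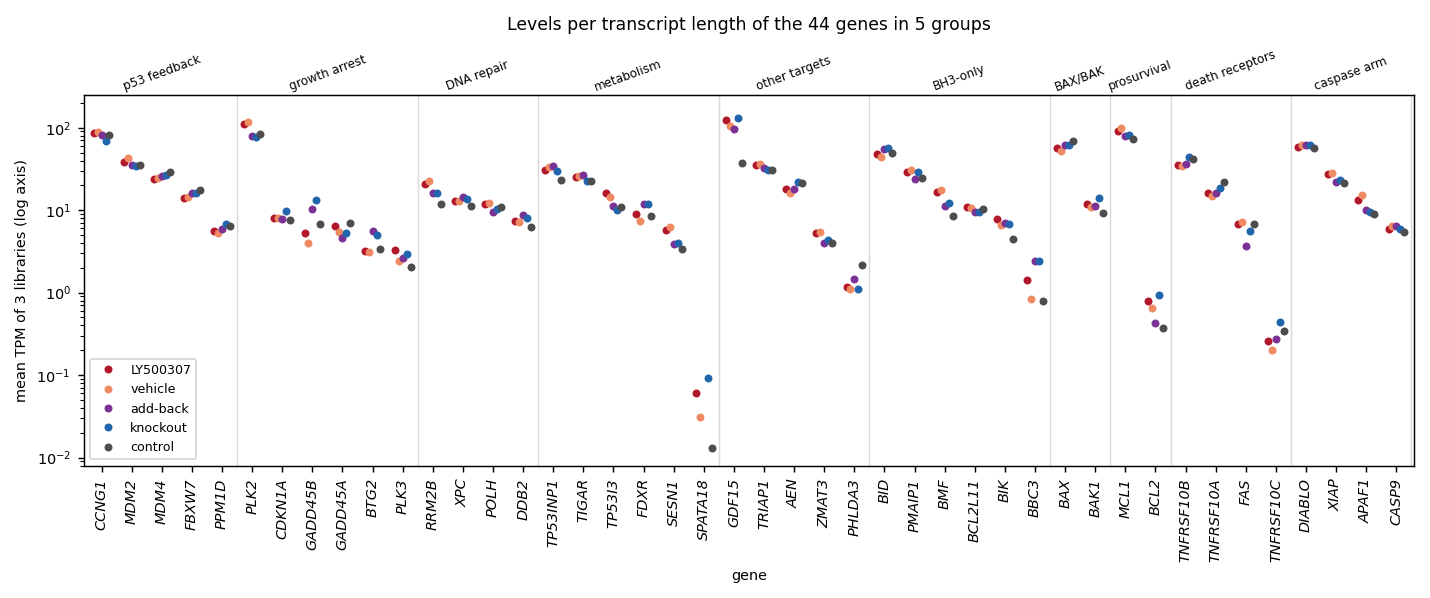
Mean level per transcript length (TPM, log axis) of the 44 genes, grouped by role, in 5 groups of 3 libraries. Points of 1 gene lie close together for most genes, while GDF15, GADD45B, BBC3, BCL2, FAS and PHLDA3 spread visibly between groups. The add-back mean of SPATA18 is 0 and is left out of the log axis.

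Between groups most of the genes differed little. For 7 of the 42 tested genes the highest group mean in CPM was more than 2 times the lowest, and the median ratio over the 42 was 1.38. The highest mean lay with LY500307 in 5 genes, with vehicle in 18, in add-back in 6, in knockout in 5 and in control cells in 8. The same count was not made over all genes. In vehicle over add-back cells 26.4% of all genes were called higher and 21.6% lower.

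**Figure D2:**
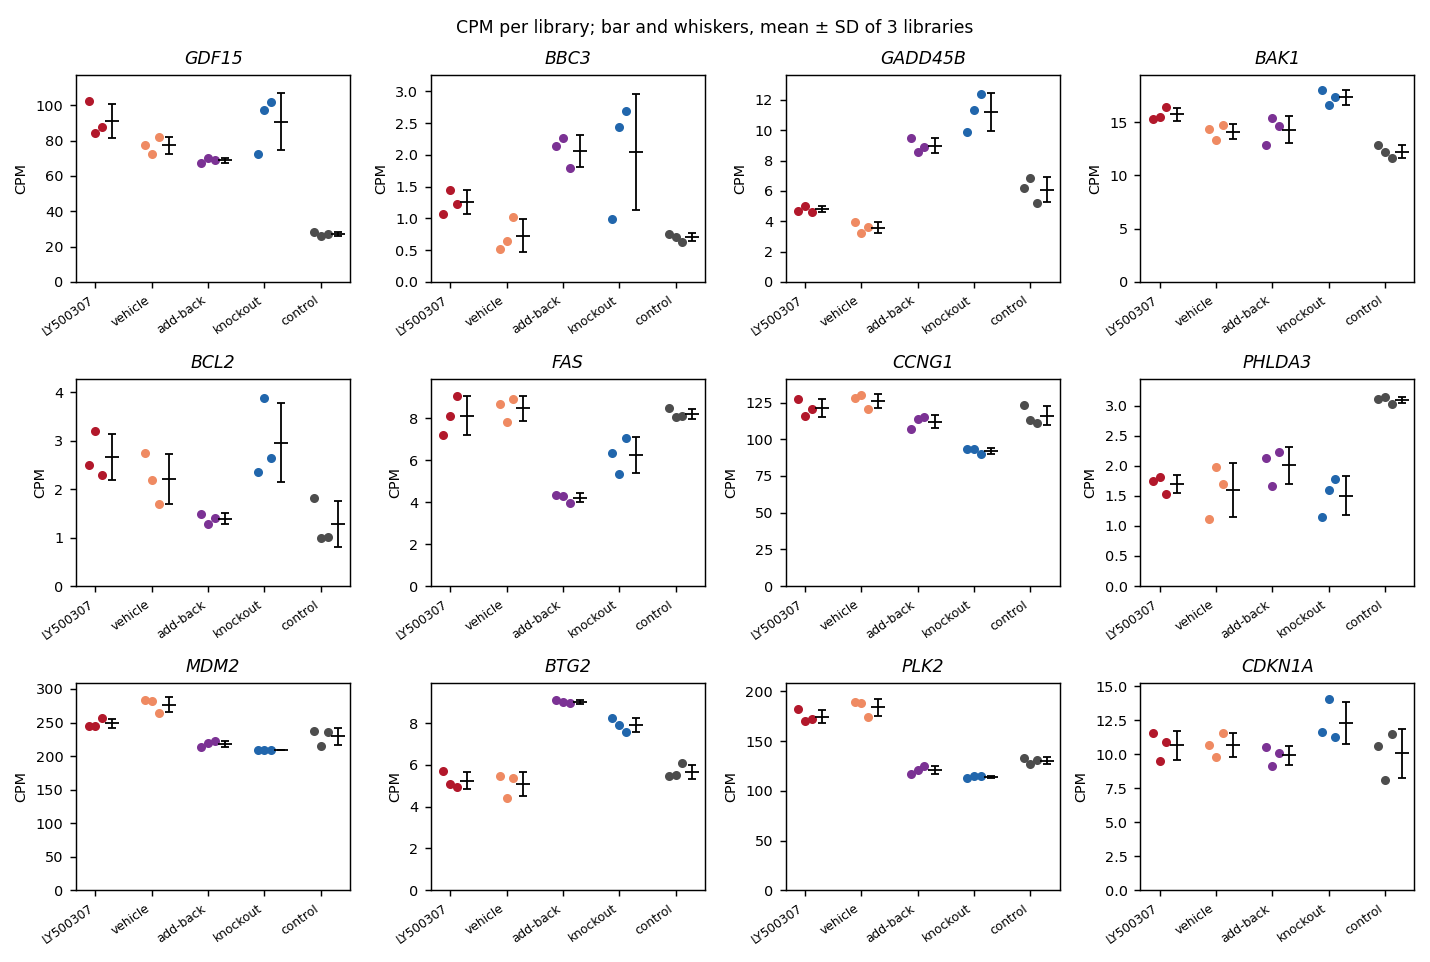
Level of 12 genes in each of the 15 libraries (CPM, linear axis from 0), with mean ± SD of 3 libraries. GDF15 is lowest in the control libraries, FAS lowest in the add-back libraries, GADD45B highest in the knockout libraries, and CDKN1A overlaps between all groups except add-back and knockout.

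Knockout over control cells compared cells labelled as without ERβ with wild-type cells. Loss of ERβ and any difference between clones cannot be told apart in it. GDF15, BBC3 and BCL2 were the members with the largest rises, and PHLDA3 had the largest fall. Genes of a shared role did not move as a block, since the pore former gene BAK1 rose where BAX fell and GADD45B rose where its relative GADD45A fell. Among the feedback regulators of p53, 4 of 5 were called lower. With a correction for GC content and transcript length, MDM2 and FBXW7 lost this call. Without that correction, none of the 4 genes of the caspase arm was called. In all, 12 of 42 tested genes were called higher and 12 lower, or 57.1%, against 46% of all genes called in this comparison (23.4% higher and 22.6% lower). The 3 libraries of each group did not overlap for 14 members above and 12 below, against 26.5% and 26.1% of all genes. Their median log2 fold change was 0.05, against -0.0049 over all genes. With offsets that remove a trend on GC content and transcript length in each library, 15 genes were higher and 9 lower, and the higher share of calls over all genes was 46.6% in place of 50.8%. BID, MCL1, PMAIP1 and XIAP joined the higher genes and TP53I3 the lower ones, 5 lower genes lost their call and FDXR turned from higher to lower.

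Among the feedback genes, CCNG1 fell most. It had 93.4, 93.5 and 89.7 CPM in knockout libraries, against 123, 113 and 111 CPM in control libraries (log2 fold change -0.33 ± 0.05, adjusted p = 1.68e-05). All knockout libraries lay below all control libraries, and with the offsets the log2 fold change was -0.17 (adjusted p = 0.00372). MDM2 had 209.5, 209 and 209 CPM in knockout libraries, against 238, 215 and 236 CPM in control libraries, a smaller fall without overlap (log2 fold change -0.13 ± 0.04, adjusted p = 0.0095). With the offsets MDM2 did not pass (log2 fold change -0.05, adjusted p = 0.336, with adjusted p from 0.000449 to 0.37 over the 16 alternative settings tried), and neither did it without control replicate 3. MDM4, a relative of MDM2 that inhibits p53, fell by 0.20 (-0.12 with the offsets) and FBXW7, a ubiquitin ligase subunit, by 0.21 on the log2 scale. FBXW7 too did not pass with the offsets (adjusted p = 0.0806). PPM1D, a phosphatase that dampens p53 signalling, had 14.5 CPM in knockout and 14.4 CPM in control cells and was not called.

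Of the 6 growth arrest genes, 2 rose and 2 fell, against 23.4% of all genes called higher and 22.6% lower. GADD45B, a stress-induced inhibitor of proliferation, had 9.90, 11.3 and 12.4 CPM in knockout libraries, against 6.21, 6.86 and 5.18 CPM in control libraries, and the groups were far apart (log2 fold change 0.89 ± 0.12, adjusted p = 3.56e-06). GADD45A, the p53-induced member of that family, had 3.21, 3.12 and 4.16 CPM in knockout libraries, against 4.17, 4.64 and 5.62 CPM in control libraries (log2 fold change -0.46 ± 0.16, adjusted p = 0.0292). Its lowest control library lay just above its highest knockout library, and the call was lost with DESeq2, without a filter on low counts, with only the 6 libraries compared, with the offsets, and without knockout replicate 1, knockout replicate 2 or control replicate 3 (adjusted p from 0.0126 to 0.173 over 16 alternatives). CDKN1A, which encodes the cell cycle inhibitor p21, the classical p53 target, had 11.6, 14.1 and 11.3 CPM in knockout libraries, against 10.6, 8.07 and 11.5 CPM in control libraries. These ranges overlapped and CDKN1A was not called (log2 fold change 0.28 ± 0.12, adjusted p = 0.0726). It was called higher without a filter on low counts and without control replicate 3, while the offsets gave 0.11 (adjusted p from 0.0267 to 0.51 over 16 alternatives). BTG2, an antiproliferative p53 target, had 8.26, 7.92 and 7.59 CPM in knockout libraries, against 5.45, 5.50 and 6.07 CPM in control libraries (log2 fold change 0.48 ± 0.11, adjusted p = 0.00121). PLK2 fell by 0.19 on the log2 scale (adjusted p = 0.000784, and -0.13 with the offsets), and PLK3, another polo-like kinase, had 3.41 CPM in knockout and 2.50 CPM in control cells without a call.

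In DNA repair and metabolism the called changes were modest. RRM2B, the p53-induced ribonucleotide reductase subunit, rose by 0.35, XPC, a sensor of DNA damage, by 0.22 and TP53INP1, a p53-induced regulator of autophagy, by 0.28 on the log2 scale. POLH, the translesion polymerase eta, had 22.4, 20.2 and 19.7 CPM in knockout libraries, against 22.7, 22.6 and 24.6 CPM in control libraries (log2 fold change -0.17 ± 0.06, adjusted p = 0.0326), a fall that did not pass with the offsets (adjusted p = 0.0811, range 0.0111 to 0.17 over 16 alternatives). Its call was also lost with DESeq2, without a filter on low counts, with only the 6 libraries compared, and without knockout replicate 2, knockout replicate 3 or control replicate 3. POLH overlaps GTPBP2 on the other strand, TP53INP1 overlaps NDUFAF6 and XPC overlaps LSM3, and the sources used here do not say whether strand was used in counting, so reads of these pairs may be shared. FDXR, a mitochondrial ferredoxin reductase, had 11, 13.5 and 13.8 CPM in knockout libraries, against 9.77, 9.43 and 10.5 CPM in control libraries (log2 fold change 0.37 ± 0.11, adjusted p = 0.0074). With the GC content and length offsets its call pointed down (log2 fold change -0.23, adjusted p = 0.038), with or without the replicate block. The other alternatives all called it higher, and adjusted p ran from 0.00138 to 0.0496 over the 16. Its direction thus rests on these offsets. DDB2, TIGAR, SESN1 and TP53I3 were not called, with log2 fold changes from -0.24 to 0.27.

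GDF15 rose 3.33-fold. It had 72.2, 97.5 and 102 CPM in knockout libraries, against 28.4, 26.1 and 27.4 CPM in control libraries, so even the lowest knockout library was far above every control library (log2 fold change 1.73 ± 0.11, adjusted p = 1.1e-10). With the offsets the log2 fold change was 1.21 (adjusted p = 1.83e-10, at most 3.32e-07 over 16 alternatives). PHLDA3 moved the other way, with 1.14, 1.60 and 1.78 CPM in knockout libraries, against 3.11, 3.14 and 3.03 CPM in control libraries (log2 fold change -1.03 ± 0.22, adjusted p = 0.000759). ZMAT3, an RNA-binding p53 target, AEN, an apoptosis-enhancing nuclease, and TRIAP1, an inhibitor of apoptosis, were not called, with log2 fold changes from -0.08 to 0.03.

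Of the 6 BH3-only genes, 3 rose and BCL2L11 fell, against 23.4% of all genes called higher and 22.6% lower. BBC3 had 0.997, 2.44 and 2.69 CPM in knockout libraries, against 0.758, 0.714 and 0.632 CPM in control libraries (log2 fold change 1.55 ± 0.34, adjusted p = 0.00093). Its first knockout library stood near the control libraries while the other two were several times higher, and counts were as low as 8 in a library. With the offsets its log2 fold change was 0.99 (adjusted p = 0.0141). BIK had 3.71, 3.88 and 3.74 CPM in knockout libraries, against 2.80, 3.29 and 1.77 CPM in control libraries (log2 fold change 0.54 ± 0.19, adjusted p = 0.0226), and its call was lost with DESeq2, with only the 6 libraries compared, without knockout replicate 2 and without control replicate 3 (adjusted p from 0.00531 to 0.201 over 16 alternatives). BMF, released from the cytoskeleton by stress, had 30.4, 32.3 and 33.2 CPM in knockout libraries, against 23.4, 23.4 and 24 CPM in control libraries, with little spread in either group (log2 fold change 0.44 ± 0.06, adjusted p = 8.35e-06). BCL2L11, the gene of BIM, had 25.3, 28.5 and 26.6 CPM in knockout libraries, against 32, 30.1 and 31.9 CPM in control libraries (log2 fold change -0.23 ± 0.06, adjusted p = 0.0049). It overlaps the RNA gene MIR4435-2HG on the other strand, which averaged 55.0 CPM against 30.1 CPM for BCL2L11. PMAIP1, the gene of NOXA, had 31.8, 33.6 and 31.5 CPM in knockout libraries, against 34.1, 25.1 and 29.4 CPM in control libraries, overlapping ranges without a call (log2 fold change 0.13 ± 0.09, adjusted p = 0.256). It was called higher with the offsets (log2 fold change 0.30, adjusted p = 0.00314) and without control replicate 1. BID, which links death receptors to the mitochondrion, had 65.2, 68.3 and 72.4 CPM in knockout libraries, against 65, 64.4 and 62.7 CPM in control libraries (log2 fold change 0.10 ± 0.05, adjusted p = 0.114) and was called with the offsets (adjusted p = 0.0434).

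At the mitochondrial pore BAK1 had 18, 16.6 and 17.4 CPM in knockout libraries, against 12.9, 12.2 and 11.6 CPM in control libraries (log2 fold change 0.51 ± 0.08, adjusted p = 3.25e-05). BAX had 35.3, 38.8 and 38.5 CPM in knockout libraries, against 43.5, 45.2 and 42.4 CPM in control libraries (log2 fold change -0.22 ± 0.06, adjusted p = 0.0032). Neither gene's groups overlapped, and the pair moved in opposite directions. With the offsets the log2 fold changes were 0.28 for BAK1 (adjusted p = 0.0094) and -0.50 for BAX (adjusted p = 2.04e-07). The prosurvival gene BCL2 had 2.35, 3.88 and 2.63 CPM in knockout libraries, against 1.82, 1.00 and 1.01 CPM in control libraries (log2 fold change 1.21 ± 0.27, adjusted p = 0.00103), a 2.32-fold rise at a low level. MCL1, the more abundant prosurvival gene, had 169 CPM in knockout and 162 CPM in control cells and was not called (log2 fold change 0.06 ± 0.04, adjusted p = 0.285). It was called higher with the offsets (log2 fold change 0.13, adjusted p = 0.0062) and without control replicate 1.

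Among the death receptors, FAS, the receptor of FAS ligand, had 6.34, 5.33 and 7.04 CPM in knockout libraries, against 8.48, 8.07 and 8.09 CPM in control libraries (log2 fold change -0.39 ± 0.12, adjusted p = 0.011). This fall did not pass with the offsets (log2 fold change -0.24, adjusted p = 0.116, range 0.00603 to 0.116 over 16 alternatives), with DESeq2 or without knockout replicate 2. TNFRSF10A, a TRAIL receptor, had 27.6, 27.6 and 27.1 CPM in knockout libraries, against 34.5, 31.7 and 37 CPM in control libraries (log2 fold change -0.33 ± 0.06, adjusted p = 0.00012). TNFRSF10B, the second TRAIL receptor and a known p53 target, had 94.4, 89.6 and 93.7 CPM in knockout libraries, against 93, 90.7 and 95.7 CPM in control libraries, with overlapping ranges (log2 fold change -0.01 ± 0.05, adjusted p = 0.902). APAF1, CASP9, DIABLO and XIAP, an inhibitor of caspases, had log2 fold changes between 0.01 and 0.06 and adjusted p from 0.364 to 0.964. With the offsets XIAP had a log2 fold change of 0.17 (adjusted p = 0.00252) and was called higher.

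**Figure D3:**
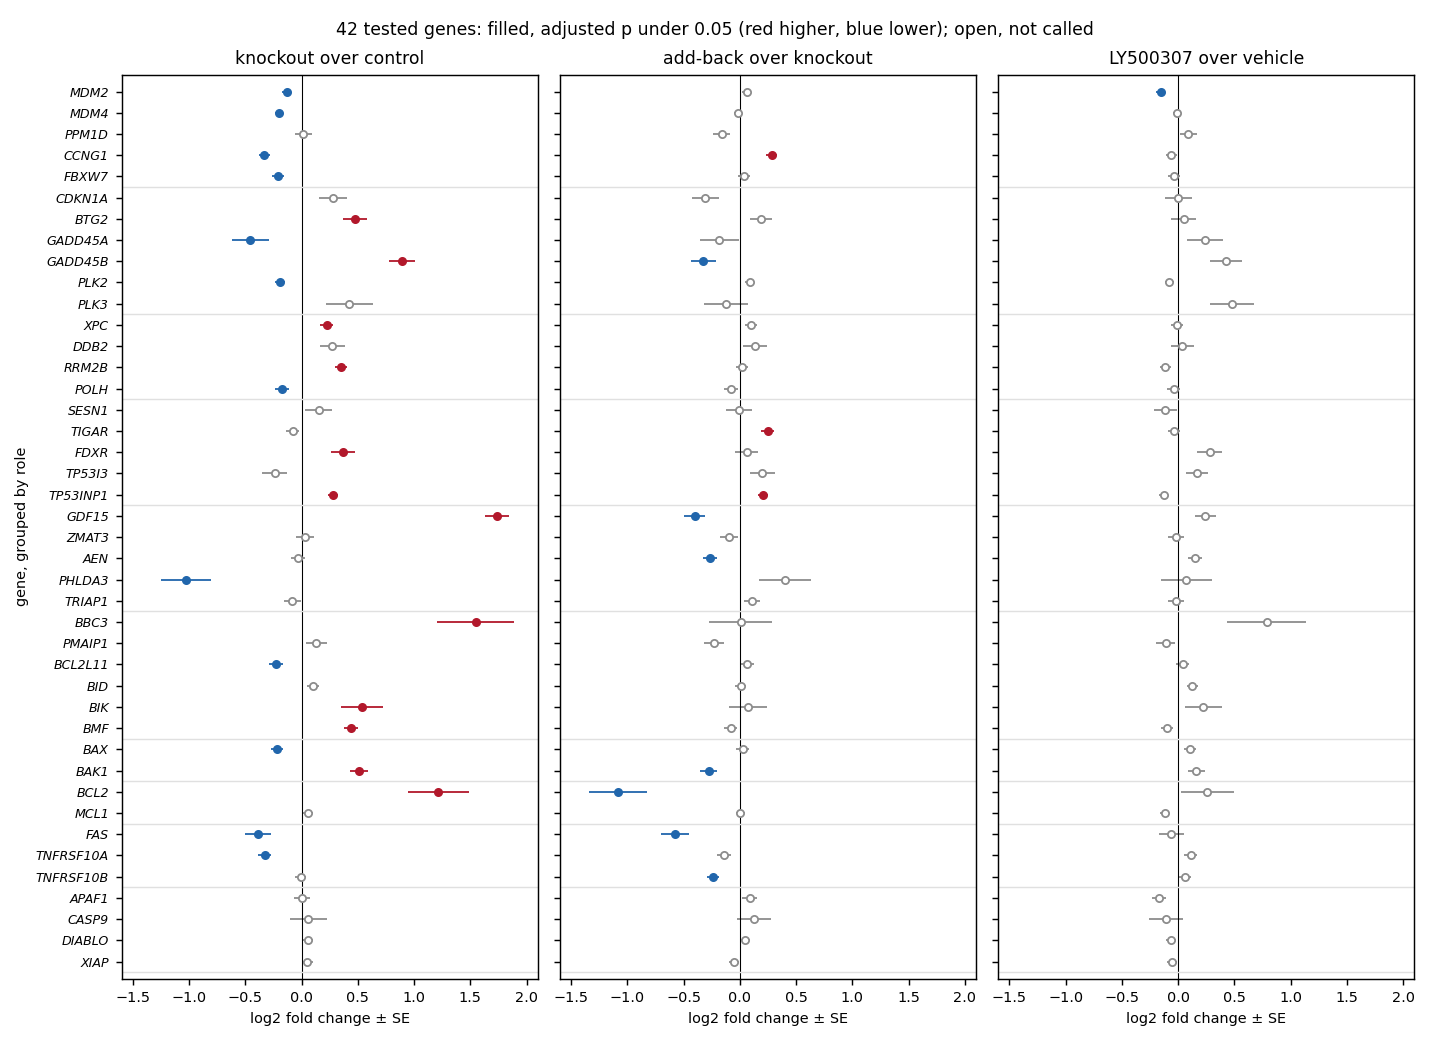
Log2 fold changes ± SE of the 42 tested genes, grouped by role, in knockout over control, add-back over knockout and LY500307 over vehicle cells. Filled points passed an adjusted p of 0.05, which 24, 10 and 1 of the genes did in the 3 comparisons.

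Add-back over knockout cells compared knockout cells with and without transfected ERβ. ERβ and the transfection itself cannot be told apart in it, since no group is labelled as transfected without ERβ. BCL2 and FAS fell most, GDF15, BAK1, GADD45B, AEN and TNFRSF10B fell less, and CCNG1, TIGAR and TP53INP1 rose. No BH3-only, DNA repair or caspase arm gene was called. In all, 3 of 42 genes were called higher and 7 lower, or 23.8%, against 19.6% of all genes (10.4% higher and 9.19% lower). The libraries did not overlap for 6 members above and 11 below, against 17.7% and 17.6% of all genes. Their median log2 fold change was 0.0078, against -0.0070 over all genes. Over all genes 53.1% of calls were higher, and 42% with upper-quartile factors, with which PMAIP1 and TNFRSF10A joined the 7 lower genes. PMAIP1 also joined them with the offsets (-0.27, adjusted p = 0.0128). The knockout libraries also enter the comparison with control cells, so the values below are set beside the control level without counting shared directions.

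BCL2 had 1.49, 1.27 and 1.41 CPM in add-back libraries, against 2.35, 3.88 and 2.63 CPM in knockout libraries (log2 fold change -1.08 ± 0.26, adjusted p = 0.00565). No add-back library reached the lowest knockout library, and control libraries averaged 1.28 CPM (add-back over control, log2 fold change 0.13 ± 0.30, adjusted p = 0.744). BAK1 had 12.9, 15.4 and 14.6 CPM in add-back libraries, against 18, 16.6 and 17.4 CPM in knockout libraries (log2 fold change -0.28 ± 0.08, adjusted p = 0.0146), and its add-back mean of 14.3 ± 1.28 CPM compared with 12.2 ± 0.627 CPM in control cells (SD, n = 3 each, log2 fold change 0.23 ± 0.08, adjusted p = 0.0259). The BAK1 call in add-back over knockout cells was lost without knockout replicate 1, without knockout replicate 3, without add-back replicate 1, with DESeq2 and without a filter on low counts (adjusted p from 0.00717 to 0.104 over 16 alternatives). BAK1 in add-back over control cells had a log2 fold change of 0.01 with the offsets (adjusted p = 0.918, range 0.00429 to 0.918), and this call was also lost with DESeq2 and without add-back replicate 2, add-back replicate 3 or control replicate 3. BBC3 had 2.14, 2.26 and 1.79 CPM in add-back libraries, against 0.997, 2.44 and 2.69 CPM in knockout libraries, with no detectable difference (log2 fold change 0.01 ± 0.28, adjusted p = 0.99), and it remained 2.94-fold above control cells (log2 fold change 1.56 ± 0.34, adjusted p = 0.000827), with 0.99 with the offsets (adjusted p = 0.0133).

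FAS had 4.34, 4.31 and 3.96 CPM in add-back libraries, against 6.34, 5.33 and 7.04 CPM in knockout libraries (log2 fold change -0.58 ± 0.13, adjusted p = 0.00314). All 3 add-back libraries were below every knockout and every control library, and against control cells the log2 fold change was -0.96 ± 0.12 (adjusted p = 3.06e-06, at most 4.64e-05 over 16 alternatives). FAS thus was lower in untreated add-back cells than in knockout or control cells, rather than near the control level. Vehicle and LY500307 cells, which also carried transfected ERβ, averaged 8.47 and 8.11 CPM, against 8.21 CPM in control cells. The fall of FAS in knockout over control cells did not pass with the offsets. TNFRSF10B had 71.9, 80.7 and 82.8 CPM in add-back libraries, against 94.4, 89.6 and 93.7 CPM in knockout libraries (log2 fold change -0.24 ± 0.05, adjusted p = 0.00187), and against control cells log2 fold change -0.25 ± 0.05, adjusted p = 0.000423. TNFRSF10A had 25, 26.1 and 23.3 CPM in add-back libraries, against 27.6, 27.6 and 27.1 CPM in knockout libraries, below without overlap but not called (log2 fold change -0.14 ± 0.06, adjusted p = 0.108), and was called against control cells (log2 fold change -0.47 ± 0.06, adjusted p = 2.11e-06). All 3 tested death receptor genes were therefore called lower in add-back than in control cells, against 22.7% of all genes.

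GDF15 had 67.4, 69.9 and 69 CPM in add-back libraries, against 72.2, 97.5 and 102 CPM in knockout libraries (log2 fold change -0.40 ± 0.09, adjusted p = 0.00477). Without knockout replicate 3 this call was lost (adjusted p from 5.11e-11 to 0.0569 over 16 alternatives), and add-back cells stayed 2.52-fold above control cells (log2 fold change 1.33 ± 0.11, adjusted p = 7.5e-09), with a log2 fold change of 0.79 with the offsets (adjusted p = 1.69e-07). GADD45B had 9.51, 8.56 and 8.88 CPM in add-back libraries, against 9.90, 11.3 and 12.4 CPM in knockout libraries (log2 fold change -0.32 ± 0.11, adjusted p = 0.0405), a call that was lost with DESeq2, without a filter on low counts, without knockout replicate 2 or 3 and without any 1 of the add-back replicates (adjusted p from 0.0228 to 0.227 over 16 alternatives). Its level against control cells remained higher (log2 fold change 0.57 ± 0.12, adjusted p = 0.0006). AEN had 34.9, 39.4 and 39.8 CPM in add-back libraries, against 47.1, 42.5 and 47.2 CPM in knockout libraries (log2 fold change -0.26 ± 0.06, adjusted p = 0.00468), and it was lower than in control cells as well (log2 fold change -0.30 ± 0.06, adjusted p = 0.000558). Leaving out knockout replicate 3 reduced the 7 lower genes to 4, with BAK1, GADD45B and GDF15 lost.

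The 3 genes that rose did so by small amounts. CCNG1 had 107, 114 and 115 CPM in add-back libraries, against 93.4, 93.5 and 89.7 CPM in knockout libraries (log2 fold change 0.28 ± 0.05, adjusted p = 0.000366), and against control cells no difference was detected (log2 fold change -0.05 ± 0.05, adjusted p = 0.428). TIGAR, a phosphatase that lowers glycolysis, had 44, 44.3 and 42.9 CPM in add-back libraries, against 37.1, 34.5 and 38.6 CPM in knockout libraries (log2 fold change 0.25 ± 0.06, adjusted p = 0.00413). TP53INP1 had 116, 115 and 111 CPM in add-back libraries, against 98, 98.7 and 99.8 CPM in knockout libraries (log2 fold change 0.21 ± 0.04, adjusted p = 0.00208), and its control libraries lay lower still at 80.4, 81.7 and 82.6 CPM (add-back over control, log2 fold change 0.48 ± 0.04, adjusted p = 4.45e-08). CDKN1A had 10.5, 9.17 and 10.1 CPM in add-back libraries, all below the knockout values given above, and was not called (log2 fold change -0.31 ± 0.12, adjusted p = 0.0877). MDM2 had 213, 219 and 222 CPM in add-back libraries (log2 fold change 0.06 ± 0.04, adjusted p = 0.319), PMAIP1 24.5, 28.7 and 29.3 CPM (log2 fold change -0.23 ± 0.09, adjusted p = 0.0835) and BAX 36, 38.8 and 39.5 CPM (log2 fold change 0.02 ± 0.06, adjusted p = 0.824), none of them called.

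Add-back over control cells compared knockout cells that carried transfected ERβ with wild-type cells. The level of ERβ, the transfection and any difference between clones cannot be told apart in it. Here 13 of 42 genes were called higher and 12 lower, or 59.5%, against 45.8% of all genes (23.2% higher and 22.7% lower), with a median log2 fold change of 0.04 against -0.02 over all genes. The libraries did not overlap for 14 members above and 13 below, against 26.3% and 27% of all genes. With the offsets 15 were higher and 9 lower, and with DESeq2 12 and 8. The lower calls of PLK2, BCL2L11 and FBXW7 were lost in 12, 10 and 5 of 16 alternatives. DNA repair genes were called in all 4 cases, DDB2, a damage sensor, higher by 0.41, RRM2B by 0.37 and XPC by 0.32, while POLH had 20.3, 19 and 19.7 CPM in add-back libraries, against 22.7, 22.6 and 24.6 CPM in control libraries (log2 fold change -0.25 ± 0.06, adjusted p = 0.00305). BTG2 had 9.12, 9.00 and 8.94 CPM in add-back libraries, against 5.45, 5.50 and 6.07 CPM in control libraries (log2 fold change 0.67 ± 0.10, adjusted p = 3.34e-05). GADD45A had 3.24, 3.20 and 2.87 CPM in add-back libraries, against 4.17, 4.64 and 5.62 CPM in control libraries (log2 fold change -0.64 ± 0.16, adjusted p = 0.00355), and PHLDA3 had 2.14, 1.66 and 2.24 CPM in add-back libraries, against 3.11, 3.14 and 3.03 CPM in control libraries (log2 fold change -0.63 ± 0.21, adjusted p = 0.0184). The PHLDA3 call was lost with DESeq2, without a filter on low counts and without add-back replicate 2 (adjusted p from 0.000675 to 0.103 over 16 alternatives), and the offsets gave -0.97. BIK had 4.14, 3.65 and 4.15 CPM in add-back libraries, above every control library (log2 fold change 0.61 ± 0.18, adjusted p = 0.00906), and lost its call without control replicate 3 (adjusted p up to 0.0792). BMF kept a log2 fold change of 0.36 and BAX one of -0.20 (-0.48 with the offsets), and the BAX call was lost without add-back replicate 1 or control replicate 2 (adjusted p up to 0.0808). FDXR was higher by 0.43 (adjusted p = 0.00215), but its value with the offsets was -0.19 (adjusted p = 0.0714).

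LY500307 over vehicle cells asked what 24 h of the agonist changed in cells with transfected ERβ. MDM2 was the single gene called, and it fell slightly. No member was called higher, against 4.77% of all genes, and 1 of 42 or 2.38% was called lower, against 2.35% of all genes. The median log2 fold change of the 42 was -0.0020, against -0.02 over all genes, and none exceeded 1 in size. At an unadjusted p under 0.05 there were 8 genes higher and 5 lower, against 21.4% of all genes in either direction. The groups did not overlap for 8 genes above and 3 below, against 12.5% and 13.6% of all genes.

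MDM2 had 245, 244 and 256 CPM in LY500307 libraries, against 284, 282 and 265 CPM in vehicle libraries (log2 fold change -0.16 ± 0.04, adjusted p = 0.0212). Every LY500307 library was below every vehicle library. The call was lost without any 1 of LY500307 replicates 1 and 2 and vehicle replicates 1 and 2, and with the offsets (log2 fold change -0.07, adjusted p = 0.438, range 0.00296 to 0.486 over 16 alternatives). DESeq2 called MCL1 lower as well, and it had 195, 201 and 198 CPM in LY500307 libraries, against 215, 221 and 209 CPM in vehicle libraries (log2 fold change -0.12 ± 0.04, adjusted p = 0.0936 in edgeR's quasi-likelihood test). Without vehicle replicate 3, BID and FDXR were called higher and APAF1 and TP53INP1 lower beside MDM2.

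The largest fold change was that of BBC3, with 1.08, 1.45 and 1.23 CPM in LY500307 libraries, against 0.523, 0.641 and 1.02 CPM in vehicle libraries. The LY500307 libraries were all higher, but at this low level the gene was not called (log2 fold change 0.79 ± 0.35, adjusted p = 0.194). GADD45B had 4.70, 5.01 and 4.64 CPM in LY500307 libraries, against 3.92, 3.20 and 3.61 CPM in vehicle libraries, also without overlap (log2 fold change 0.43 ± 0.14, adjusted p = 0.0708). GDF15 had 102, 84.2 and 87.4 CPM in LY500307 libraries, against 77.6, 72.4 and 82.1 CPM in vehicle libraries (log2 fold change 0.24 ± 0.09, adjusted p = 0.124), and it was called higher without a filter on low counts and with only the 6 libraries compared. With the offsets its log2 fold change was -0.03 (adjusted p = 0.931). BAK1 had 15.3, 15.5 and 16.4 CPM in LY500307 libraries, against 14.4, 13.3 and 14.7 CPM in vehicle libraries (log2 fold change 0.16 ± 0.08, adjusted p = 0.231). None of these 4 passed the threshold, although none overlapped. CDKN1A had 11.5, 9.48 and 10.9 CPM in LY500307 libraries, against 10.7, 9.77 and 11.6 CPM in vehicle libraries, with overlapping ranges (log2 fold change 0.00 ± 0.12, adjusted p = 0.997). FAS had 7.19, 8.09 and 9.04 CPM in LY500307 libraries, against 8.69, 7.79 and 8.92 CPM in vehicle libraries (log2 fold change -0.06 ± 0.11, adjusted p = 0.813), BCL2 had 2.49, 3.20 and 2.29 CPM in LY500307 libraries, against 2.74, 2.19 and 1.70 CPM in vehicle libraries (log2 fold change 0.26 ± 0.24, adjusted p = 0.588), and both overlapped. BAX, PMAIP1 and TNFRSF10B had log2 fold changes of 0.10 ± 0.06, -0.11 ± 0.08 and 0.06 ± 0.05, with adjusted p of 0.301, 0.502 and 0.533.

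Fold changes with LY500307 followed GC content across the 42 genes. Spearman's correlation of log2 fold change with transcript GC content was 0.72, and 0.08 with the offsets, which remove such a trend by design. The points share libraries and base composition, so this is a description. Over all genes the share called in this comparison was 7.12%, and 1.33% with the offsets. The same correlation was 0.34 in knockout over control cells and -0.10 in add-back over knockout cells, and with the offsets -0.01 and -0.07. The origin of the GC dependence was not tested.

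Vehicle over add-back cells compared the same kind of cells in what the protocols give as different media, since the vehicle cells had spent 72 h in medium with depleted serum and then 24 h with DMSO, so medium, DMSO and any difference in handling cannot be told apart. FAS rose 2.01-fold, and SESN1, BMF, BCL2, APAF1 and PLK2 rose as well, while BBC3, GADD45B, BTG2 and FDXR fell. In all, 17 of 42 genes were called higher and 6 lower, or 54.8%, against 48.1% of all genes (26.4% higher and 21.6% lower), with a median of 0.03 against 0.01 over all genes. The libraries did not overlap for 18 members above and 9 below, against 30.3% and 25.5% of all genes. With upper-quartile factors the count was 15 and 10, and with the offsets 14 and 13, while the offsets moved the median over all genes by -0.11.

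FAS had 8.69, 7.79 and 8.92 CPM in vehicle libraries, against 4.34, 4.31 and 3.96 CPM in add-back libraries (log2 fold change 1.00 ± 0.12, adjusted p = 1.14e-06). The vehicle libraries lay near the control libraries at 8.48, 8.07 and 8.09 CPM. SESN1, a stress-induced regulator of growth signalling, had 11.8, 12.3 and 11.4 CPM in vehicle libraries, against 7.57, 7.18 and 6.26 CPM in add-back libraries (log2 fold change 0.76 ± 0.11, adjusted p = 9.32e-06). BMF had 44.5, 49.8 and 51 CPM in vehicle libraries, against 29, 31.2 and 30.5 CPM in add-back libraries (log2 fold change 0.68 ± 0.05, adjusted p = 5.86e-09). APAF1, the scaffold of the apoptosome, had 49.96, 51.4 and 44.8 CPM in vehicle libraries, against 29.2, 32.5 and 31.6 CPM in add-back libraries (log2 fold change 0.65 ± 0.07, adjusted p = 1.28e-07). Without the offsets and with all libraries it was not called in the other 4 comparisons. The offsets called APAF1 higher in add-back over control cells (log2 fold change 0.16, adjusted p = 0.0421), and leaving out vehicle replicate 3 called it lower in LY500307 over vehicle cells. PLK2 had 189, 189 and 174 CPM in vehicle libraries, against 117, 121 and 125 CPM in add-back libraries (log2 fold change 0.60 ± 0.04, adjusted p = 4.14e-10). Each of these 5 kept its call with the offsets, at log2 fold changes of 0.79, 0.56, 0.66, 0.43 and 0.45. Both prosurvival genes were called higher, against 26.4% of all genes. BCL2 had 2.74, 2.19 and 1.70 CPM in vehicle libraries, against 1.49, 1.27 and 1.41 CPM in add-back libraries (log2 fold change 0.68 ± 0.27, adjusted p = 0.0432). MCL1 rose by 0.35 on the log2 scale (0.17 with the offsets). The BCL2 call was lost with the offsets (adjusted p = 0.134, range 0.0284 to 0.209 over 16 alternatives), with DESeq2, upper-quartile factors and voom, without a filter on low counts, without any 1 of the add-back replicates and without vehicle replicate 1 or 2.

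BBC3 had 0.523, 0.641 and 1.02 CPM in vehicle libraries, against 2.14, 2.26 and 1.79 CPM in add-back libraries (log2 fold change -1.51 ± 0.33, adjusted p = 0.000724), near the control level of 0.701 ± 0.0639 CPM. GADD45B had 3.92, 3.20 and 3.61 CPM in vehicle libraries, against 9.51, 8.56 and 8.88 CPM in add-back libraries (log2 fold change -1.33 ± 0.13, adjusted p = 5.55e-08), and BTG2 had 5.49, 4.43 and 5.38 CPM in vehicle libraries, against 9.12, 9.00 and 8.94 CPM in add-back libraries (log2 fold change -0.83 ± 0.10, adjusted p = 1.94e-06). All 3 kept their call with the offsets, at -0.91, -1.18 and -0.92. BID had 55, 55.2 and 61.2 CPM in vehicle libraries, against 66.6, 72 and 68.5 CPM in add-back libraries (log2 fold change -0.28 ± 0.05, adjusted p = 0.000161). FDXR had 8.23, 7.37 and 9.95 CPM in vehicle libraries, against 13.8, 13.3 and 13.1 CPM in add-back libraries (log2 fold change -0.66 ± 0.10, adjusted p = 3.14e-05), but its value was -0.01 with the offsets (adjusted p = 0.956). BAX had 33.9, 32.6 and 33.4 CPM in vehicle libraries, against 36, 38.8 and 39.5 CPM in add-back libraries (log2 fold change -0.20 ± 0.06, adjusted p = 0.00666). With the offsets its direction turned to 0.13 (adjusted p = 0.063), and with the replicate block added it stayed there (adjusted p = 0.0825). All other alternatives called BAX lower, down to an adjusted p of 0.00116. MDM2 rose by 0.34 and PMAIP1, POLH and XIAP by 0.42, 0.42 and 0.40, and with the offsets these 4 values were 0.19, 0.22, 0.28 and 0.22, each still called. RRM2B and ZMAT3 rose by 0.53 and 0.48, and by 0.33 and 0.30 with the offsets, also still called. BCL2, BCL2L11, CCNG1 and TRIAP1 lost their higher call with the offsets, TRIAP1 going from 0.21 to 0.04. CDKN1A was not called (log2 fold change 0.10 ± 0.12, adjusted p = 0.523). GDF15 had 77.4 CPM with vehicle and 68.7 CPM in add-back cells (log2 fold change 0.17 ± 0.09, adjusted p = 0.153), and was called higher with the offsets (0.77, adjusted p = 2.43e-08).

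**Figure D4:**
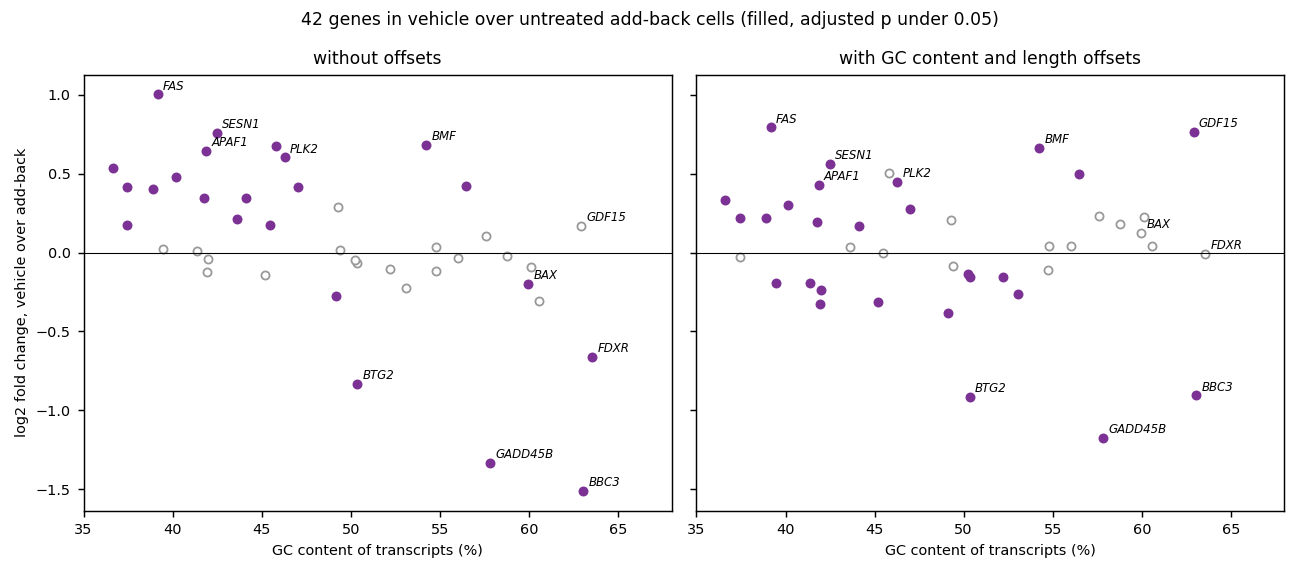
Log2 fold change of the 42 tested genes in vehicle over add-back cells against the GC content of their transcripts, without (left) and with (right) offsets for GC content and length. Spearman's correlation was -0.55 without and -0.11 with the offsets, which remove such a trend by design. FAS, SESN1 and BMF stay high, BBC3, GADD45B and BTG2 stay low, and BAX and FDXR move to the other side of 0 or onto it.

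Transcript shares were read for the members with at least 100 counts in every library, as estimated by the authors, and are descriptions without a test. The main MDM2 transcript, MDM2-202, held 78.1% of the gene's counts with LY500307, 78.2% with vehicle, 79.4% in add-back, 78.3% in knockout and 78.9% in control cells, so its share was nearly constant. For BID, transcript BID-215 held 58.9 ± 4.52% with LY500307, 72.0 ± 1.65% with vehicle, 48.6 ± 4.02% in add-back, 51.8 ± 4.48% in knockout and 63.8 ± 1.23% in control cells (SD, n = 3 each). Vehicle and add-back cells thus differed in which BID transcript the counts were assigned to. BMF-201 held 21.0 ± 6.53% with LY500307, 14.7 ± 14.1% with vehicle, 32.1 ± 13.5% in add-back, 43.3 ± 10.7% in knockout and 14.8 ± 6.10% in control cells. Its spread between libraries was wide in 3 of the groups. The main CDKN1A transcript, CDKN1A-201, held 60.8 ± 52.7% in add-back cells, so the assignment between its transcripts was not stable from library to library. MCL1 shares are left out because 77.0% of its counts fell on transcripts of GENCODE 29.

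Genes around p53 that are not among the 44 were counted from lists. Of all genes, 23.4% were called higher and 22.6% lower in knockout over control, 10.4% and 9.19% in add-back over knockout, 4.77% and 2.35% in LY500307 over vehicle, 23.2% and 22.7% in add-back over control, and 26.4% and 21.6% in vehicle over add-back cells, and the counts of the 3 lists stand against these shares. Of 15 genes of the p53 core (among them kinases, ligases and cofactors of p53), 3 were called higher and 8 lower in knockout over control cells, with ATR, a damage kinase, at -0.60, USP7, a deubiquitinase of MDM2 and p53, at -0.25 and TP53BP1, a p53-binding repair protein, at -0.24 on the log2 scale. In add-back over knockout cells 4 were higher and 0 lower, among them TRIM24 (0.31) and CDKN2A (0.47), which encodes p16 and ARF. LY500307 over vehicle had 0 calls among them. In add-back over control cells 2 were higher and 7 lower, and in vehicle over add-back cells 7 higher and 3 lower, with TP63, the p53 relative of basal epithelium, at 1.72.

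Of 40 further p53-induced genes 36 were tested. In knockout over control cells 18 were higher and 11 lower, against 23.4% and 22.6% of all genes, with CYFIP2, an actin regulator, at 1.45, CMBL at -0.88 and KITLG, the ligand of KIT, at -0.86. In add-back over knockout cells 3 were higher and 4 lower, with PERP, a desmosome protein, at 0.65 and SUSD6 at -0.40. With LY500307 over vehicle 6 were higher and 2 lower, against 4.77% and 2.35% of all genes, with GPC1, a glypican, at 0.62 and DRAM1, a regulator of autophagy, at -0.21. Add-back over control cells had 18 higher and 9 lower, and vehicle over add-back cells 17 higher and 9 lower, with ZNF385A at -1.02.

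Of 28 further genes of the apoptosis machinery 26 were tested. BIRC3, an inhibitor of apoptosis regulated by NF-κB, was called in 4 comparisons, at -1.38 in knockout over control, -1.13 in add-back over control, 0.55 in LY500307 over vehicle and 0.78 in vehicle over add-back cells. TNFSF10, the gene of TRAIL, had a log2 fold change of 1.68 in knockout over control and -0.81 in add-back over knockout cells, where its means were 6.46 CPM in add-back, 11.4 CPM in knockout and 3.55 CPM in control cells. CFLAR, which blocks caspase 8, stood at -0.45 in knockout over control and 0.62 in vehicle over add-back cells. The list's counts were 6 higher and 5 lower in knockout over control (11 of 26 in all, against 46% of all genes), 2 and 3 in add-back over knockout, 2 and 0 in LY500307 over vehicle, 7 and 5 in add-back over control, and 13 and 6 in vehicle over add-back cells.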

How the data were processed

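The members and gene lists were chosen with earlier results of these data known. Per the submitters' processing notes, the tools were Trim Galore with FastQC, then GSNAP and RSEM, with the build GRCh38, while versions, annotation release and use of strand in counting are not given in the sources used here. The tables deposited by the authors hold expected counts of genes and of transcripts without normalisation, and these were rounded to whole numbers for testing. Genes passing edgeR's filterByExpr (edgeR 4.0.16, R 4.3.3), 19516 of 60664, were fitted in 1 group-means model of all 15 libraries with TMM factors and a two-sided quasi-likelihood F test. CPM use TMM-scaled library sizes, and TPM were computed from the deposited counts and transcript lengths of GENCODE 29, which also gave positions and GC content and held 58396 of the gene identifiers. The biological coefficient of variation was 4.99%. Squared differences between replicate counts averaged 2.16 to 5.47 times the variance from counting error (chi-square per degree of freedom).

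Members given library by library were the 6 largest rises and 6 largest falls per comparison among called genes with a mean of at least 1 CPM and no overlap between groups, plus CDKN1A, MDM2, BBC3, PMAIP1, BAX, BCL2, FAS and TNFRSF10B. A few further members are named beside them, chosen after their values were seen. Of each list of other genes, at most 3 called genes with the smallest p are named per comparison. A result on 1 further gene is not reported here. Alternatives were DESeq2 1.42.0, RLE and upper-quartile factors, voom in limma 3.58.1, no filter on low counts, at least 1 CPM in 3 libraries, only the 6 libraries compared, a replicate block, offsets from splines on GC content and length (alone and with the block), and leaving out each library. The fit was tested on simulated data.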

Additional observations from a re-analysis of the deposited data

How the results depend on the processing

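Of 1664 recomputed fold changes of named or called members, 1487 kept their direction and side of the threshold, 121 lost their call, 14 gained one and 42 changed sign. In 10 of these 42 the gene had been called, all with GC content and length offsets.

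The offsets gave FDXR -0.23 in knockout over control and -0.19 in add-back over control cells, and CCNG1 -0.025, BCL2L11 -0.0010 and BAX 0.13 in vehicle over add-back cells. With the replicate block added these were -0.23, -0.19, -0.026, -0.0015 and 0.13. Genes near 0 that changed sign with the offsets were BBC3 (-0.0034) in add-back over knockout, CDKN1A (-0.089), BAX (-0.056) and FAS (0.029) in LY500307 over vehicle, and MDM2 (0.027) and PMAIP1 (0.029) in add-back over control cells, and with block and offsets CDKN1A (-0.094), BAX (-0.056), FAS (0.026), MDM2 (0.027) and PMAIP1 (0.029) in those comparisons. CDKN1A in LY500307 over vehicle was -0.00042 with DESeq2, -0.0013 with upper-quartile factors and -0.0031 with the replicate block, and in add-back over control 0.0041 without a filter on low counts. Upper-quartile factors gave BBC3 -0.020 and BAX -0.0063 in add-back over knockout, and only the 6 libraries compared gave TNFRSF10B 0.0064 in knockout over control cells. The causes were not tested.

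For LY500307 over vehicle the count of members called lower, 1, became 2 with DESeq2 and 0 with the offsets, with or without the block, and the count called higher became 1 without a filter and 1 with only the 6 libraries compared. For vehicle over add-back cells the 6 lower genes became 10 with upper-quartile factors, 10 with a filter of 1 CPM in 3 libraries, 13 with the offsets and 12 with block and offsets.

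Leaving out 1 library at a time gave 4 to 6 lower genes in add-back over knockout, and 0 to 2 higher and 0 to 3 lower genes in LY500307 over vehicle cells. Log2 fold changes that changed sign ranged from -0.30 to 0.29 for BBC3 and -0.0046 to 0.081 for BAX in add-back over knockout, -0.030 to 0.015 for TNFRSF10B in knockout over control, and -0.055 to 0.088 for CDKN1A and -0.13 to 0.034 for FAS in LY500307 over vehicle. In add-back over control cells they ranged from -0.15 to 0.11 for CDKN1A, -0.19 to 0.026 for PMAIP1 and -0.0013 to 0.47 for BCL2.

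Replicate numbers did not pair the libraries. Residuals of same-numbered libraries in different groups correlated at -0.0952 to 0.0603, 0 of 30 pairs above 0.1, and those of other numbers at -0.0699 to 0.0976. Under the replicate block GADD45B in add-back over knockout (adjusted p = 0.0601) and PLK2 in add-back over control cells lost their call, and no other member's call changed. With 3 libraries a group and members down to 8 counts, small changes of BBC3, BCL2 and PHLDA3 were not detectable at this depth.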
